A study of Mus musculus with 16 samples.

Results

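Astrocytes are the glial cells that clear transmitters, buffer potassium and feed neurons, and a tag on their ribosomes lets the RNA that they translate be drawn out of whole tissue. The 8 libraries described here are the immunoprecipitated RNA (IP) and the lysate RNA (input) of striata whose astrocytes carried bARK(D110A), which is 8 of the 16 libraries of the study. They were picked out by their labels, with earlier results of these data known. bARK is a fragment of the β-adrenergic receptor kinase GRK2 that binds the active Gq α subunit, and the D110A substitution lies in the region that makes this contact, so that bARK(D110A) serves as its control. All animals were 9-week-old male C57BL/6J mice, listed as wildtype, with the construct expressed in astrocytes in vivo.

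The groups were bARK(D110A) IP and bARK(D110A) input, with 4 libraries each, and, for 1 comparison only, bARK IP and bARK input, also with 4 libraries each. IP RNA came down with ribosomes through a hemagglutinin (HA) tag, and input RNA came from the cleared lysate before that step. No mouse without a construct was among the groups, so the data hold no measure of what the construct itself does. How the tagged ribosomal protein and the construct were delivered, and from which promoter, was not given in the sources used here. Libraries with the same number were read as 1 mouse. The main tests compared group means without a mouse term. Their p-values rest on the spread over these libraries, which includes differences between mice that IP and input share.

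The striatum is made up mostly of inhibitory spiny projection neurons of the direct and indirect pathways, with sparse interneurons that release acetylcholine or GABA. Astrocytes, oligodendrocytes, microglia and the cells of vessels lie among them. In a ribosome IP from one cell type, RNAs translated in that cell type gain in share over the lysate, and RNAs of other cells, or RNAs that are not on ribosomes, lose. The values are relative within a library, so a gain of one set of RNAs lowers the share of the others, and in bulk tissue fewer cells of a type and less RNA per cell cannot be told apart.

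Depth was high in both groups. IP libraries held 44.6 to 51.4 M counts and input libraries 29.1 to 37.3 M, a difference of 16.2 M in the mean (exact permutation test, two-sided, p = 0.0286, the smallest that 4 against 4 libraries can give). The permutation tests of library values treated the libraries as unpaired, and a test on 4 pairs could not give so small a p. Despite this depth IP libraries had fewer genes at 1 CPM (count scaled to a library total of 1 M) or more, 13440 ± 83.2 against 13857 ± 128 in input (SD, n = 4 each; exact permutation p = 0.0286). At 5 CPM or more the difference was -65.3 genes (exact permutation p = 0.257). The gene with the most counts was the astrocyte glutamate transporter Slc1a2 in all 4 IP libraries and Malat1, a nuclear noncoding RNA, in all 4 input libraries.

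Rpl22, the ribosomal protein that carries the HA tag in common designs of this kind, was checked first. Rpl22 (chromosome 4, 152324436 to 152334082) had 274, 268, 336 and 323 CPM in IP, against 95.5, 87.8, 95.1 and 89.97 CPM in input. Every IP library lay above every input library, with a log2 fold change of 1.71 ± 0.11 (SE; edgeR quasi-likelihood test, adjusted p = 4.19e-10). Reads of an introduced Rpl22 sequence and of the native gene cannot be told apart in this table. Grk2, listed as Adrbk1, the kinase from which bARK was taken, had 94.6, 105, 111 and 95.97 CPM in IP and 89.03, 107, 91.9 and 86.8 CPM in input. Those ranges overlapped (log2 fold change 0.12 ± 0.091, adjusted p = 0.258).

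IP differed from input in most of the 15850 genes that could be tested: 5786 (36.5%) rose and 5891 (37.2%) fell at an adjusted p under 0.05. A stricter test asked which genes differed by more than 2-fold: 1159 (7.31%) were higher and 1378 (8.69%) lower. The median log2 fold change of all genes tested was -0.007, and the middle 90% of genes lay between -2.19 and 1.65. The losses thus reached further than the gains. Genes higher by more than 2-fold took 16.9% to 19.0% of IP CPM and 4.80% to 5.43% of input CPM. Those lower by more than 2-fold took 1.66% to 1.86% of IP CPM and 5.53% to 5.81% of input CPM. Without TMM factors, that is with scaling by library size alone, the median of all genes was -0.165, a shift of -0.158, and the share of calls that were higher was 37.4% in place of 49.6%. The fold changes below are on the main scale, and small gains should be read against that shift. Counts in a list should be read against the 36.5% and 37.2% of all genes.

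The 4 mice repeated each other closely. The log2 ratio of IP to input within a mouse had a median SD of 0.099 over the 10020 genes with a mean of at least 10 CPM. Every mouse was beyond 2-fold in 1044 of the 1159 strictly higher genes and in 1234 of the 1378 strictly lower ones. Those genes were called from the same 4 mice, so these counts describe them and are no separate check.

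Among the 755 genes that were strictly higher, had a mean of at least 10 CPM and did not overlap between IP and input, the 10 with the largest gains were Chrdl1, Gfap, Cd109, Dcxr, Aldh1l1, Eda2r, Gldc, Acsbg1, Aass and Aqp4. Chrdl1 (chromosome X, 143285674 to 143394263), a secreted BMP-binding protein by which astrocytes drive synapse maturation, led them with 72.5, 68.6, 95.97 and 81.3 CPM in IP and 10.3, 10.7, 12.6 and 13.5 CPM in input. Its log2 fold change was 2.75 ± 0.14 (adjusted p = 4.63e-11). Gldc, the decarboxylase of the glycine cleavage system, had 179.8, 159.7, 201 and 181 CPM in IP and 34.9, 28.2, 32.1 and 31.3 CPM in input (log2 fold change 2.51 ± 0.078, adjusted p = 6.57e-14). Aass, the first enzyme of lysine breakdown, had 32.9, 29.7, 37.9 and 29.7 CPM in IP and 5.30, 5.66, 5.78 and 6.34 CPM in input (log2 fold change 2.49 ± 0.089, adjusted p = 2.53e-13). These 10 are thus mostly enzymes, channels and surface proteins of astrocytes, and their values lay close together over the 4 mice except for Gfap and Cd109, which are taken up below.

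On the other side 279 genes met the same conditions, and the 10 with the largest losses were Rmrp, Ctss, C1qc, C1qa, C1qb, Igj, Lyz2, Tyrobp, Selplg and Fcrls. Apart from Rmrp, a noncoding RNA, they are genes of microglia, macrophages or plasma cells. Ctss, a lysosomal protease of microglia and macrophages, had 3.52, 2.11, 1.81 and 4.14 CPM in IP, against 286, 201, 129 and 181 CPM in input (log2 fold change -6.10 ± 0.35, adjusted p = 2.66e-09).

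Astrocyte identity genes rose as a whole. All 20 markers were higher in IP, 19 of them by more than 2-fold, with a median log2 fold change of 2.31. Aldh1l1 (chromosome 6, 90550768 to 90599171), a folate enzyme used as the general astrocyte marker, had 404, 368, 422 and 418 CPM in IP, against 71.5, 73.5, 65.5 and 68.9 CPM in input. IP and input stood well apart, with a log2 fold change of 2.53 ± 0.059 (adjusted p = 7.11e-15). Slc1a2 (chromosome 2, 102658239 to 102790784) had 19160.2, 18298, 23903 and 20344 CPM in IP, against 3260.1, 3964, 3982 and 3967 CPM in input (log2 fold change 2.43 ± 0.093, adjusted p = 5.11e-13). The smallest gain was that of Slc4a4, the sodium bicarbonate cotransporter, at 0.91 ± 0.057 (adjusted p = 2.06e-10), and the next smallest that of S100b, a calcium-binding protein, at 1.38 ± 0.10 (adjusted p = 5.10e-09). The summed level of the list was 36760.0 to 44560.0 CPM in IP and 7664 to 8960.0 CPM in input.

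**Figure D1:**
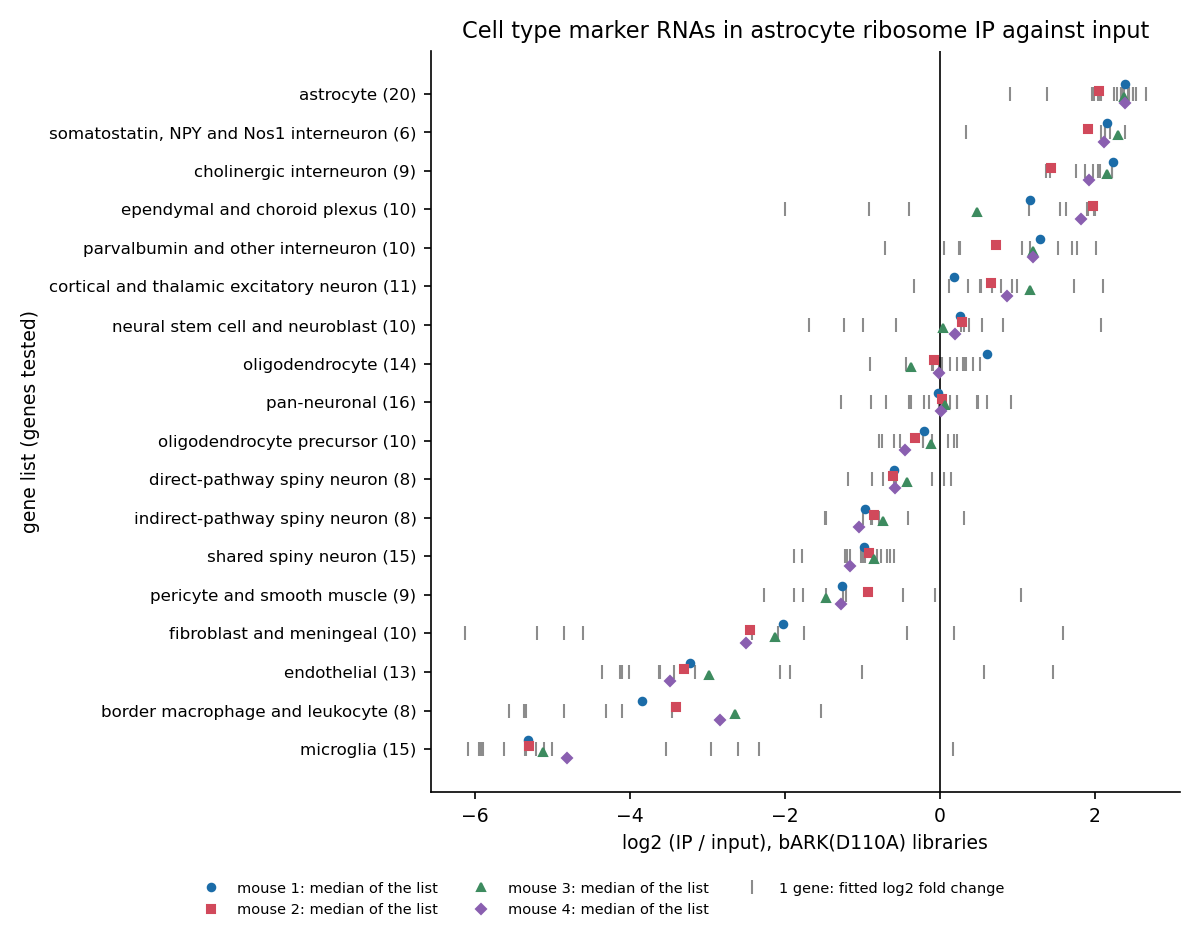
Log2 ratio of IP to input in bARK(D110A) libraries (horizontal axis) for the cell type lists with more than 1 gene tested (rows, with the number of genes). Grey ticks are the fitted fold changes of single genes and coloured symbols the list's median in each of the 4 mice; astrocyte markers lie at 2.05 to 2.39 and microglial markers at -5.32 to -4.81 in every mouse.

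**Figure D2:**
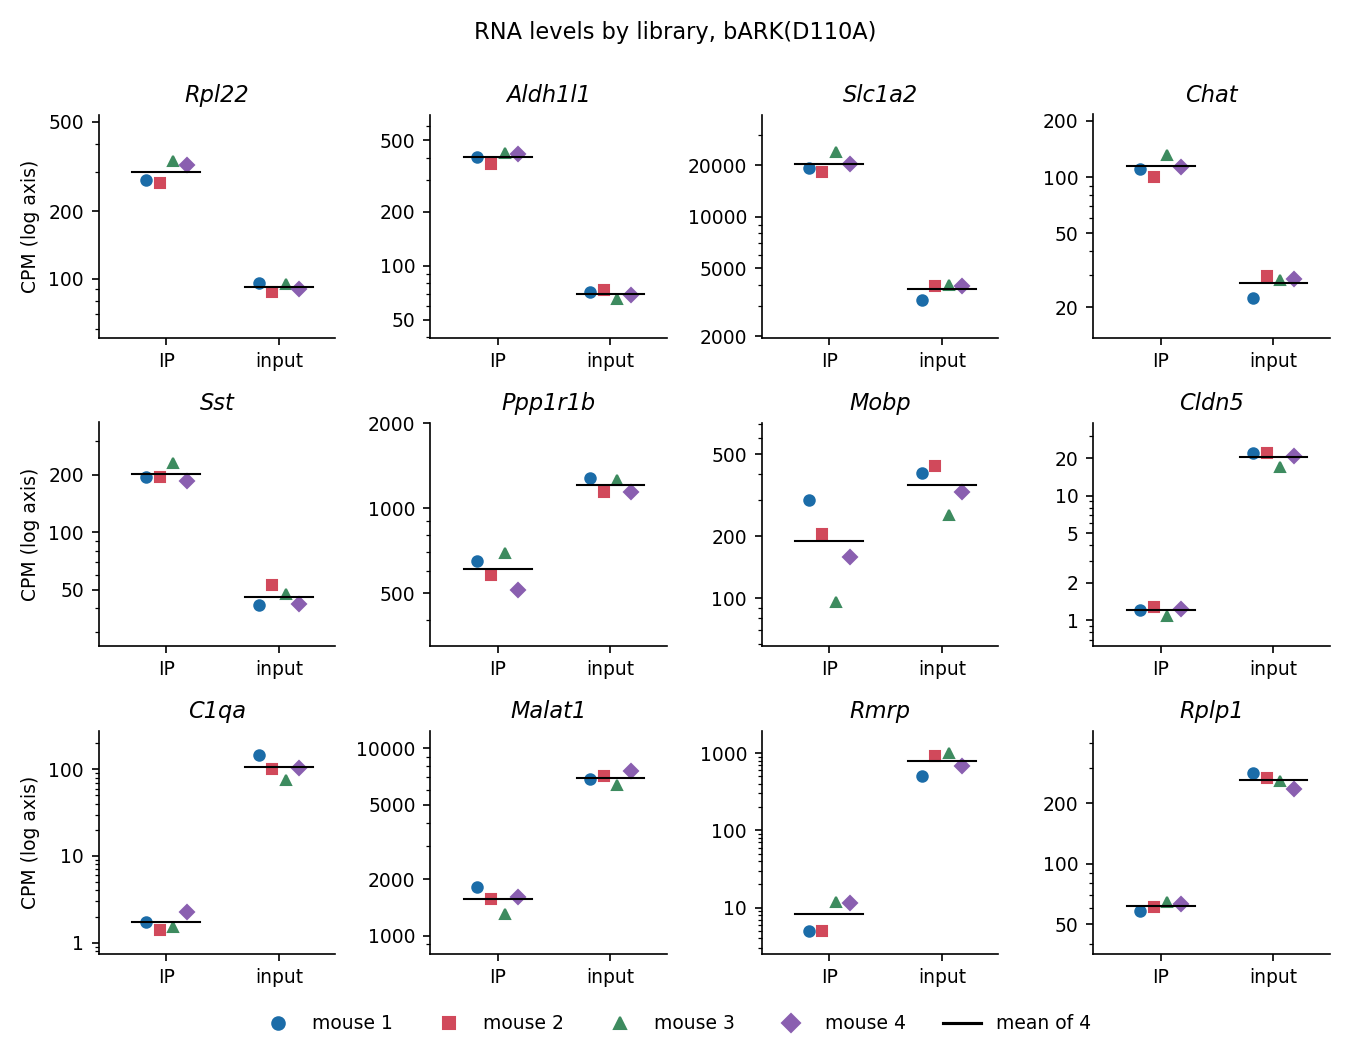
CPM (log axes) of 12 RNAs in the IP (left) and input (right) library of each bARK(D110A) mouse, with black bars for the mean of 4. Rpl22, Aldh1l1, Slc1a2, Chat and Sst are higher in all IP libraries, Mobp overlaps, and the other 6 are lower.

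Glutamate handling is the best-known service of astrocytes. Of 11 genes for glutamate uptake and glutamine synthesis, 9 rose and 2 fell (median 1.59). Glul, glutamine synthetase, had a log2 fold change of 1.98 ± 0.073 (adjusted p = 3.12e-13), and Slc38a3, which exports glutamine, one of 2.37 ± 0.080 (adjusted p = 1.47e-13). Grm3, the Gi-coupled glutamate receptor of adult astrocytes, rose by 1.24 (adjusted p = 1.08e-10). Grm5, the Gq-coupled one, which is abundant in spiny neurons, was lower at -0.61 ± 0.084 (adjusted p = 4.73e-06). The deepest loss in the list was in Slc38a5, a transporter of brain endothelium, with 0.244, 0.0694, 0.0654 and 0.0863 CPM in IP and 2.70, 1.99, 1.90 and 2.22 CPM in input (log2 fold change -4.18 ± 0.31, adjusted p = 2.35e-09).

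Ion and water handling followed. Of 16 genes 12 rose and 1 fell (median 1.32). Kcnj10, the inward-rectifier potassium channel Kir4.1, had 559, 534, 513 and 512 CPM in IP and 127, 179, 122 and 147 CPM in input (log2 fold change 1.88 ± 0.10, adjusted p = 6.42e-11). The water channel Aqp4 gained 2.48 ± 0.10 (adjusted p = 1.16e-12). Among connexins and pannexins 5 of 9 rose, and Panx2 and Gjc1 fell (-0.95 and -0.76, adjusted p = 6.24e-08 and 3.49e-05). The astrocyte connexin Gja1 had a log2 fold change of 2.38 ± 0.084 (adjusted p = 2.30e-13).

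Genes that break down fatty acids and genes that make cholesterol rose, and of the 23 and 19 in these lists 22 and 18 were also called higher under scaling by library size alone. All 23 genes of fatty acid activation and oxidation rose, 19 of them by more than 2-fold (median 1.60). Cpt1a, the gate of mitochondrial fatty acid entry, had 169.7, 149.9, 177 and 166 CPM in IP and 38.4, 37.4, 33.97 and 33.2 CPM in input (log2 fold change 2.21 ± 0.071, adjusted p = 8.07e-14). The 2 smallest gains of the list were in Acsl4 (0.22) and in Cpt1c (0.32), a carnitine palmitoyltransferase isoform of neurons. All 19 genes of cholesterol synthesis rose as well, but by less (median 0.92, 7 of them by more than 2-fold). Hmgcs1, the synthase at its start, gained 1.29 ± 0.10 (adjusted p = 2.36e-09).

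Of 16 glycogen genes 15 rose (median 1.52). The phosphorylase isoforms of brain, Pygb, and of muscle, Pygm, stood at 2.13 ± 0.069 and 2.08 ± 0.12 (adjusted p = 8.07e-14 and 4.98e-10). The one that fell was Gsk3b, a kinase with many substrates besides glycogen synthase, at -0.34 ± 0.055 (adjusted p = 3.23e-05). Glycolysis and lactate genes rose in 14 of 20 and fell in 4 (median 0.51). Of 21 glutathione and antioxidant genes 17 rose and 1 fell (median 0.96): Gstm1, a glutathione transferase, gained 2.27 ± 0.077 (adjusted p = 1.52e-13), and Gpx1, a glutathione peroxidase, lost at -0.82 ± 0.067 (adjusted p = 6.14e-09). Serine, glycine and one-carbon enzymes rose in 11 of 16 and fell in 2 (median 1.02). Lipid carriers rose in 7 of 12 and fell in 3 (median 0.86), with Apoe, the main apolipoprotein of brain, at 2.26 ± 0.079 (adjusted p = 1.89e-13).

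Regulators of the lineage were enriched too. Of 22 astrocyte lineage transcription factors 20 rose, 13 by more than 2-fold, and 1 fell (median 1.32). Sox9, which starts gliogenesis, had 111, 89.4, 94.9 and 109 CPM in IP and 21.2, 20.98, 19.1 and 24.3 CPM in input (log2 fold change 2.24 ± 0.086, adjusted p = 5.85e-13), and Lhx2 gained 2.13 ± 0.10 (adjusted p = 1.16e-11). In the Notch pathway, by which neighbouring cells signal through surface receptors, 11 of 20 genes rose and 6 fell (median 0.47). Among its receptors, Notch1, Notch2 and Notch3 gained 1.69, 1.61 and 1.73 (adjusted p = 1.81e-12, 9.03e-12 and 1.58e-12). Notch4 is counted in the list but not reported by value here. The ligand Dll4, made by endothelium, was lower at -2.51 ± 0.24 (adjusted p = 6.67e-08).

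Proteins that astrocytes secrete or show to synapses rose in 12 of 15 genes and fell in 2 (median 1.66). Besides Chrdl1 they included Gpc4, a glypican that recruits AMPA receptors (2.28 ± 0.14, adjusted p = 9.84e-11), and Sparcl1, or hevin, which promotes excitatory synapses (2.21 ± 0.11, adjusted p = 1.04e-11). The 2 that fell were Nlgn1 and Nlgn2, neuroligins that neurons also make (-0.70 and -0.42, adjusted p = 6.57e-08 and 3.44e-07). Of 16 phagocytosis genes 14 rose (median 1.17), among them the receptors Mertk (1.72 ± 0.12, adjusted p = 2.94e-09) and Megf10 (1.64 ± 0.10, adjusted p = 2.33e-10). Tyro3, the family member of neurons, and Elmo1, an adaptor of the engulfment machinery, fell (-0.54 and -0.67, adjusted p = 6.98e-06 and 8.36e-08).

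Gq signalling, the pathway that active bARK acts on, was mixed in these control animals. Of 27 Gq-coupled receptor genes 12 were higher and 6 lower in IP (median 0.37). Ednrb, an endothelin receptor, had 434, 414, 400.1 and 459 CPM in IP and 94.7, 112, 87.2 and 96.99 CPM in input (log2 fold change 2.13 ± 0.11, adjusted p = 5.05e-11). Adra1a, an α1-adrenergic receptor through which noradrenaline raises astrocyte calcium, gained 1.37 ± 0.12 (adjusted p = 1.18e-08). The largest gains of the list were those of Tacr3 and Tacr1 (2.21 and 2.20, adjusted p = 8.11e-10 and 1.34e-11), tachykinin receptors that are also in the interneuron lists below. Downstream, 9 of 26 genes of Gq, phospholipase C and calcium stores rose and 15 fell (median -0.29). Gnaq, the Gq α subunit, was at 0.23 ± 0.037 (adjusted p = 3.20e-05), but at 0.07 and not called under scaling by library size alone (adjusted p = 0.0811). Itpr2, the IP3 receptor of astrocyte stores, was higher at 1.28 ± 0.073 (adjusted p = 6.13e-11), and Itpr1, the form of neurons, lower at -0.39 ± 0.081 (adjusted p = 4.16e-04).

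**Figure D3:**
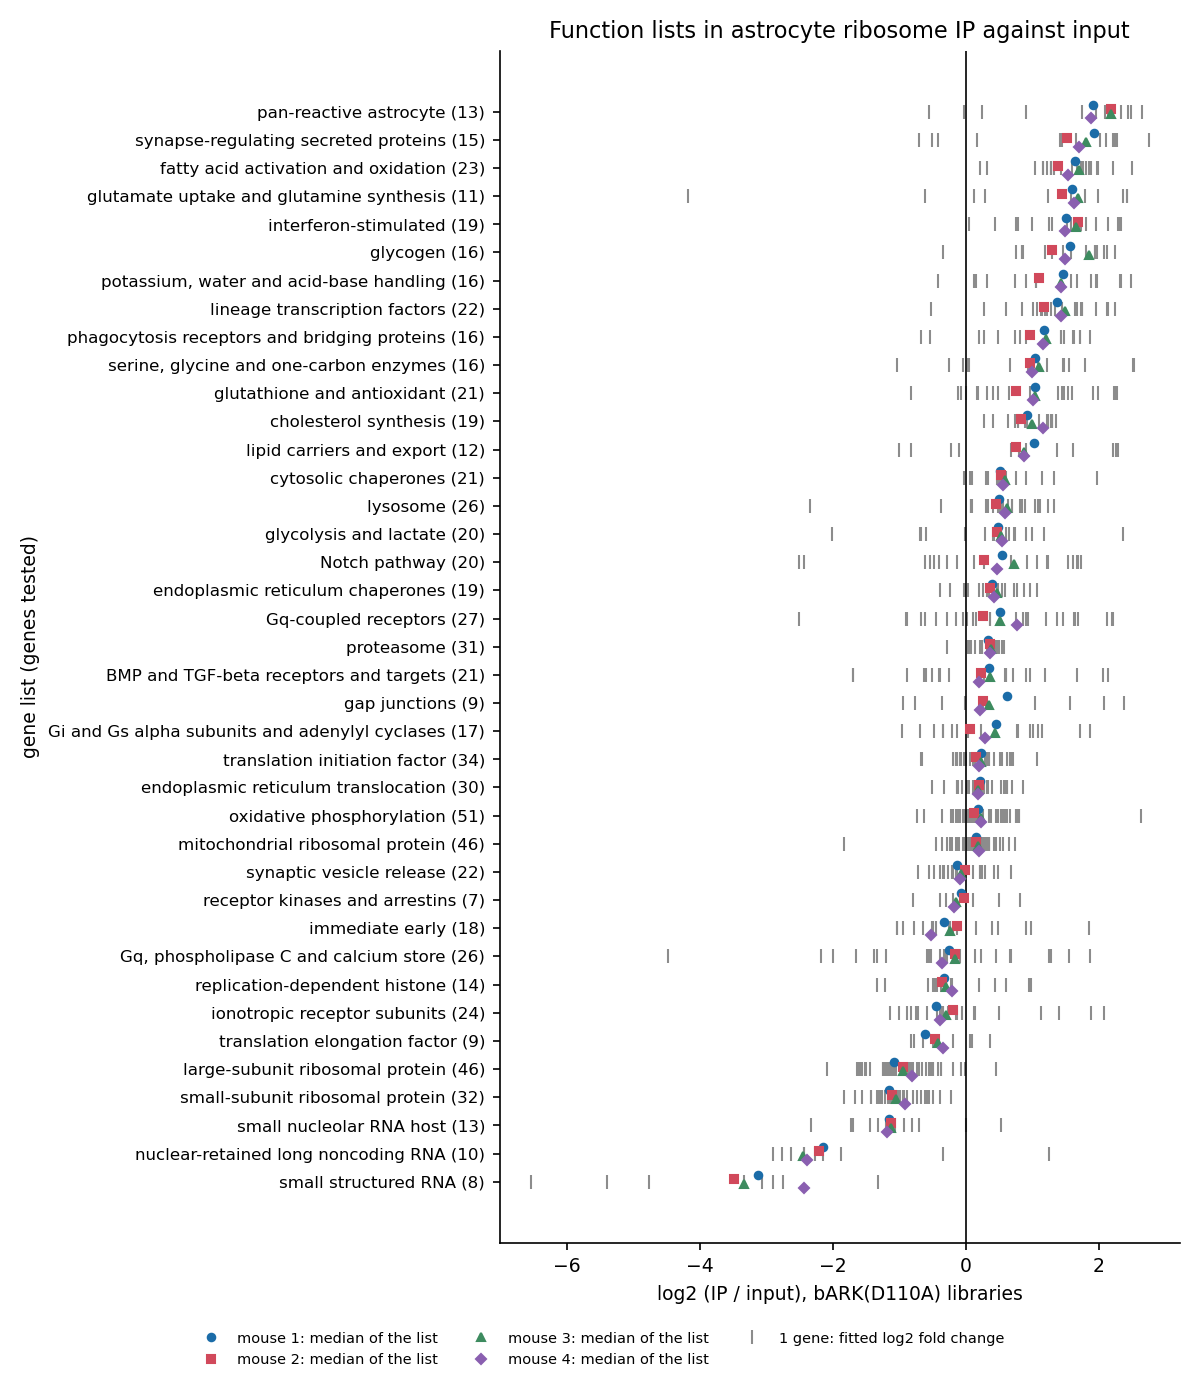
Log2 ratio of IP to input in bARK(D110A) libraries (horizontal axis) for the 39 function lists (rows, with the number of genes tested); grey ticks are single genes and coloured symbols the list's median in each of the 4 mice. Lists of astrocyte metabolism sit right of 0, with fatty acid oxidation at 1.38 to 1.70, and the lists of large-subunit and small-subunit ribosomal proteins and of nuclear-retained noncoding RNA left of it, in every mouse.

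Neuronal RNAs did not move as one class. Of 16 general neuronal markers 5 were higher and 6 lower in IP, with a median of 0.007, which was -0.15 under scaling by library size alone. Over all genes tested 36.5% were higher and 37.2% lower, so these counts do not set the list apart. The RNAs of spiny projection neurons were lower: all 15 markers shared by both pathways fell (median -0.99), as did 5 of 8 direct-pathway and 7 of 8 indirect-pathway markers, with medians of -0.58 and -0.89. Ppp1r1b (chromosome 11, 98348406 to 98357796), or DARPP-32, the phosphatase inhibitor that relays dopamine signals, had 647, 578, 694 and 511 CPM in IP, against 1281, 1139, 1257 and 1141 CPM in input. The groups did not overlap, with a log2 fold change of -0.99 ± 0.078 (adjusted p = 4.32e-09). Drd1a, the D1 dopamine receptor of the direct pathway, had 275, 249, 342 and 269 CPM in IP and 552, 415, 574 and 550.3 CPM in input (-0.88 ± 0.11, adjusted p = 1.66e-06), and Adora2a, the adenosine receptor of the indirect pathway, was at -1.48 ± 0.10 (adjusted p = 2.30e-09). The largest losses in the shared list were those of the G protein subunit Gng7 (-1.88) and of Arpp21 (-1.78). Isl1, Eya1 and Sfxn1 of the direct-pathway list were not called (-0.11, 0.14 and 0.050; adjusted p = 0.261, 0.269 and 0.455), while under scaling by library size alone Isl1 was called lower (-0.27, adjusted p = 0.00692) and the other two lay below input, uncalled. Ptprm of the indirect-pathway list rose by 0.31 (adjusted p = 3.52e-05).

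Interneuron RNAs went the other way. All 9 cholinergic interneuron markers were higher by more than 2-fold (median 1.98), and all 6 genes of the somatostatin, NPY and Nos1 list were higher, 5 of them by more than 2-fold (median 2.13). Chat (chromosome 14, 32408203 to 32465909), the enzyme that makes acetylcholine, had 111, 100.1, 132 and 113 CPM in IP, against 22.6, 29.6, 27.98 and 28.6 CPM in input. All IP libraries lay above all input libraries, at a log2 fold change of 2.07 ± 0.10 (adjusted p = 2.86e-11), in the range of the astrocyte markers. Sst (chromosome 16, 23889573 to 23891342), the peptide somatostatin, had 195, 194, 230.4 and 187 CPM in IP and 41.5, 52.8, 47.5 and 41.8 CPM in input (log2 fold change 2.13 ± 0.11, adjusted p = 3.02e-11). Nos1, the neuronal nitric oxide synthase, gained 2.39 ± 0.10 (adjusted p = 3.92e-12) and Npy, neuropeptide Y, 2.13 ± 0.090 (adjusted p = 2.25e-12).

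The parvalbumin and other interneuron list had 7 of 10 genes higher and none lower (median 1.11). Th, Lhx6, a factor of interneurons from the medial ganglionic eminence, and Kit stood at 2.01 ± 0.16, 1.70 ± 0.10 and 1.52 ± 0.058 (adjusted p = 1.68e-08, 3.23e-10 and 5.54e-13). Pvalb, the calcium buffer parvalbumin, was not called (-0.71 ± 0.38, adjusted p = 0.112). Gad1, the GABA-synthesising enzyme that spiny neurons and interneurons share, was at 0.33 ± 0.074 (adjusted p = 6.49e-04). Markers of the projection neurons and of the interneurons of 1 tissue thus lay on opposite sides of the input level.

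Oligodendrocyte RNAs were near their input level over the 4 mice together, but not in each mouse. The list's median log2 ratio of IP to input was 0.605, -0.075, -0.381 and -0.015 in mice 1 to 4. Of 14 genes none was called higher and 1, Mobp, lower (median 0.077, and -0.077 under scaling by library size alone). Mobp, a myelin-associated protein, had 300.4, 205, 95.6 and 159 CPM in IP and 403, 439, 253 and 327 CPM in input, lower in IP in each of the 4 mice although the ranges overlap (log2 fold change -0.90 ± 0.29, adjusted p = 0.0121). In a fit of the 8 bARK(D110A) libraries alone it was not called, at -0.91 (adjusted p = 0.0527). With mouse as a block 2 of the 14 genes were called higher and 2 lower. Of 10 precursor markers 4 fell, near the 37.2% of all genes tested, none rose and 6 were not called (median -0.22). Pdgfra, the receptor that defines these cells, was at -0.60 ± 0.14 (adjusted p = 0.00105). Ependymal and choroid plexus genes rose in 7 of 10 and fell in 2 (median 1.59). Foxj1, the master factor of motile cilia, had 97.9, 65.3, 36.9 and 74.7 CPM in IP and 25.02, 17.3, 12.8 and 18.2 CPM in input (log2 fold change 1.91 ± 0.26, adjusted p = 1.44e-05), and Ttr, the choroid plexus carrier transthyretin, was lower (adjusted p = 0.0125) and under 2 CPM throughout.

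Microglial markers had the lowest median of all cell type lists. Of 15 microglial genes 14 were lower, all by more than 2-fold, with a median of -5.22. Border macrophage and leukocyte genes were lower in all 8 tested. Of the 11 counted, 10 lay under 1 CPM in every IP library, and such genes could pass the count filter through input alone. That all 8 fell is thus partly set by the filter. C1qa (chromosome 4, 136895916 to 136898844), a chain of the complement starter C1q, had 1.75, 1.41, 1.53 and 2.29 CPM in IP, against 148, 101, 74.6 and 103 CPM in input (log2 fold change -5.93 ± 0.24, adjusted p = 3.14e-11). Cx3cr1, the fractalkine receptor, had 2.67, 2.45, 2.61 and 2.54 CPM in IP and 118, 101, 78.5 and 86.9 CPM in input (log2 fold change -5.22 ± 0.12, adjusted p = 7.11e-15). The summed level of the microglial list was 82.1 to 99.3 CPM in IP and 850.2 to 1391 CPM in input. Sall1, a factor of microglial identity that neural progenitors and other cells also use, was the exception at 0.16 ± 0.090 (adjusted p = 0.115). It was called higher with mouse as a block (0.17, adjusted p = 0.0375) and without the input of mouse 2 (0.23, adjusted p = 0.0422).

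Vascular RNAs were lower with named exceptions. Of 13 endothelial genes 11 fell and 2 rose (median -3.44). Cldn5 (chromosome 16, 18776847 to 18778262), the claudin that seals the blood-brain barrier, had 1.20, 1.27, 1.09 and 1.23 CPM in IP, against 22.3, 21.9, 17.2 and 21.04 CPM in input (log2 fold change -4.10 ± 0.12, adjusted p = 5.40e-14). The 2 that rose were Mfsd2a, a lipid carrier, with 33.3, 31.6, 49.7 and 39.7 CPM in IP and 12.3, 15.01, 14.2 and 14.5 CPM in input (log2 fold change 1.46 ± 0.14, adjusted p = 1.48e-07), and the glucose transporter Slc2a1 at 0.56 ± 0.081 (adjusted p = 7.97e-06). Slco1a4 and Abcb1a, also transporters, were among the 11 that fell. Of 9 pericyte and smooth muscle genes 7 fell and 1 rose (median -1.25). The one that rose was Pdgfrb, the receptor by which pericytes are usually recognised, at 1.05 ± 0.10 (adjusted p = 1.23e-07). In the fibroblast and meningeal list 8 of 10 fell and Pdgfrl rose (median -2.26), with Dcn, the matrix proteoglycan decorin, at -5.21 ± 0.23 (adjusted p = 3.03e-12).

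Noncoding RNAs were mostly lower. Of 10 nuclear-retained long noncoding RNAs 9 fell (median -2.35): Malat1 (chromosome 19, 5795690 to 5802672) had 1808, 1564, 1312 and 1612 CPM in IP and 6869, 7061, 6354 and 7581 CPM in input (log2 fold change -2.15 ± 0.12, adjusted p = 7.04e-11). Meg3, an imprinted RNA of neurons, was at -2.90 ± 0.13 (adjusted p = 1.08e-11). Pantr1, which lies beside the gene Pou3f3, was higher, with 61.8, 58.1, 77.2 and 76.2 CPM in IP and 28.6, 25.6, 31.9 and 28.5 CPM in input (log2 fold change 1.25 ± 0.10, adjusted p = 3.36e-09). All 8 small structured RNAs tested fell (median -3.20). Of the 9 counted, 6 lay under 1 CPM in every IP library, and such genes could pass the count filter through input alone. The count of 8 is thus partly set by the filter. Host genes of small nucleolar RNAs fell in 11 of 13 (median -1.12). Gas5, one of these hosts, was at -1.45 ± 0.069 (adjusted p = 6.65e-12).

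Among genes with a mean of at least 10 CPM the deepest loss was in Rmrp, the RNA of the ribonuclease MRP particle, which cuts precursor ribosomal RNA in the nucleolus. Its sequence is shown because it has that loss and is not a messenger RNA. It lies at chr4:43492788-43493058 on the minus strand of GRCm38 and is given 5′ to 3′ from the GENCODE M21 transcript of 271 bases, in lower case since no single part is singled out.
Rmrp: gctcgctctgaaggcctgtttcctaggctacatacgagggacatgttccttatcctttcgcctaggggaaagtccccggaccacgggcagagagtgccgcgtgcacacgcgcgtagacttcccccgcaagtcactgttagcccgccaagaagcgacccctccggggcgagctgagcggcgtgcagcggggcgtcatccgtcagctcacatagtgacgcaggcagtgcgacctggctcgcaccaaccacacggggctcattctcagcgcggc
Rmrp had 5.05, 4.98, 11.8 and 11.6 CPM in IP, against 506, 928, 1001 and 689 CPM in input. All 4 IP libraries lay far below the lowest input library, with a fitted log2 fold change of -6.55 ± 0.39 (adjusted p = 3.73e-09). Rpph1, the RNA of ribonuclease P, lost less, with 155, 179, 150.3 and 123 CPM in IP and 1344, 1782, 1631 and 1399 CPM in input (log2 fold change -3.34 ± 0.16, adjusted p = 4.09e-11).

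By annotated class, the 14814 protein-coding genes had a median of 0.024, the 685 long noncoding RNA genes -0.82, the 119 transcribed pseudogenes -0.39, the 103 microRNA loci -2.52 and the 45 small nucleolar RNA genes -2.62. Of the long noncoding RNA genes 59.7% were lower, and of the protein-coding genes 35.5%. Many microRNA and small nucleolar RNA loci lie inside longer transcripts, whose reads cannot be told apart from theirs here. Loci that are low in IP could also pass the count filter through input alone, which would lower the median of their class.

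Genes of ribosomal proteins were lower almost throughout. Of 46 large-subunit ribosomal protein genes, a list that leaves out Rpl22 (higher, at 1.71), 43 fell and none rose (median -0.94), and of 32 small-subunit genes 31 fell and none rose (median -1.07). Rplp1 (chromosome 9, 61913283 to 61914510), a stalk protein, had 58.1, 61.3, 64.3 and 63.3 CPM in IP, against 284, 266, 259 and 236 CPM in input (log2 fold change -2.08 ± 0.061, adjusted p = 4.43e-14). Rpl4, a core protein of the large subunit, had 210.4, 229, 228 and 218 CPM in IP and 332, 312, 319 and 309 CPM in input (-0.52 ± 0.039, adjusted p = 2.19e-09). Rpl15, Rpl18 and Rpl26 were not called (-0.004, -0.067 and 0.45; adjusted p = 0.959, 0.406 and 0.207). Many ribosomal protein genes have processed pseudogenes that share their reads, and 34 of the 78 had a mean under 10 CPM, so single values are uncertain. Of the other 44, 42 fell (median -0.97).

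Other translation and folding genes were mixed. Elongation factors and related genes fell in 6 of 9 genes and rose in 1 (median -0.48), with Eef1a1, the carrier of aminoacyl-tRNA, at -0.48 ± 0.050 (adjusted p = 1.81e-07) and Pabpc1, the poly(A)-binding protein, at -0.83 ± 0.049 (adjusted p = 9.79e-11). Initiation factors rose in 20 of 34 and fell in 6 (median 0.21), or in 15 and 12 under scaling by library size alone. Eif4g1, the scaffold of cap-dependent initiation, was at 0.70 ± 0.037 (adjusted p = 2.59e-11). Mitochondrial ribosomal proteins rose in 22 of 46 and fell in 8 (median 0.17), or in 14 and 14 under that scaling. Proteasome subunits rose in 26 of 31 and fell in 1 (median 0.37), cytosolic chaperones rose in 16 of 21 (median 0.54), and lysosomal genes rose in 20 of 26 and fell in 2 (median 0.53).

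Other short messages were set beside the ribosomal protein genes. The 6274 other coding genes in the same range of coding length, 138 to 1257 bases, had a median of 0.029, and 34.8% of them were lower, against 94.9% of the 78 ribosomal protein genes. With coding genes split into bins of equal size, the medians ran from -0.001 to 0.047 over bins of coding length, from -0.031 to 0.065 over bins of 3′ UTR length and, over bins of transcript GC content, from -0.039 to 0.072. Strict losses were somewhat more common among short genes, at 8.67% of the bin with the shortest coding parts and 5.66% of that with the longest.

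**Figure D4:**
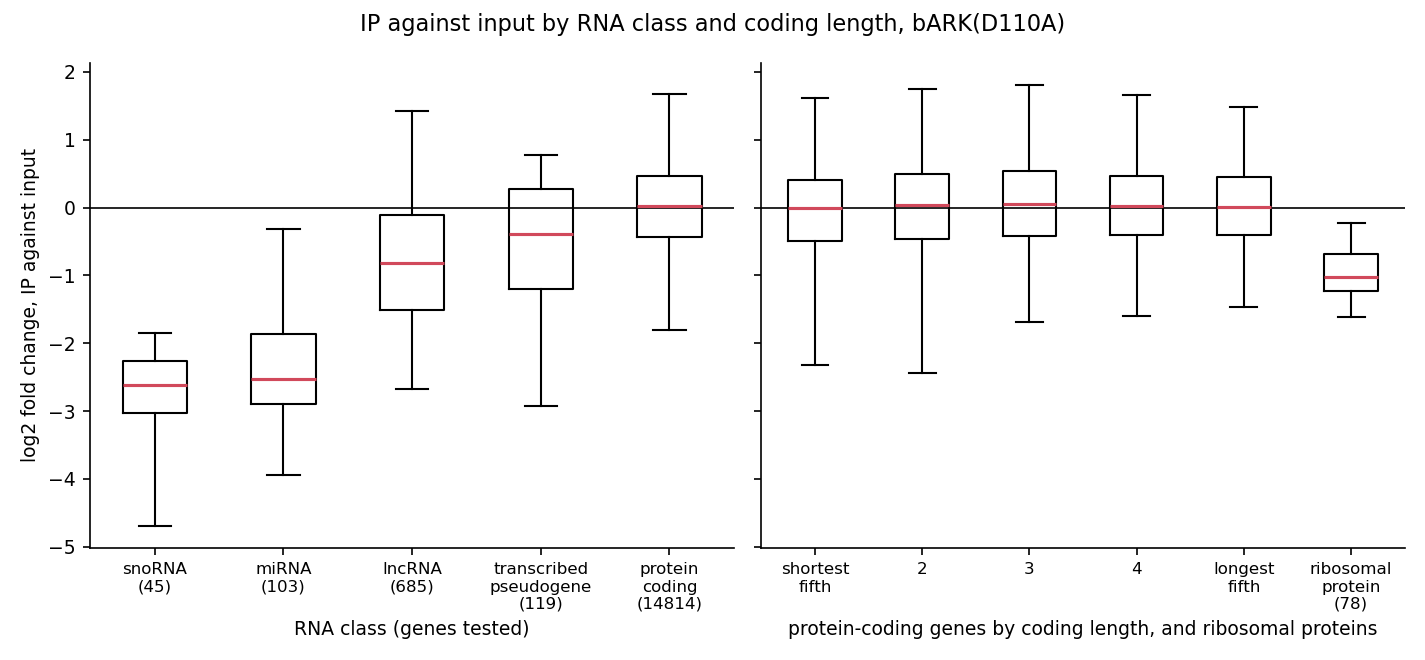
Log2 fold change of IP against input (vertical axis) by RNA class (left) and, for protein-coding genes, by bin of coding length with the 78 ribosomal protein genes beside them (right). Boxes show the quartiles, red lines the median and whiskers the 5th and 95th percentiles; medians fall from protein-coding genes (0.024) to small nucleolar RNA genes (-2.62), and coding length leaves them near 0.

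The mice differed from each other in ways that IP and input shared. The correlation of the deviations from the group means was 0.56, 0.41, 0.47 and 0.24 between IP and input of the same mouse, numbers 1 to 4, and at most 0.036 between different mice. Interferon-stimulated genes were the widest case among the function lists: their mean log2 CPM was 6.62, 5.38, 5.45 and 6.40 in IP and 5.19, 3.73, 3.92 and 4.97 in input of mice 1 to 4. The difference between IP and input held through this, and 16 of 19 genes were higher in IP with none lower (median 1.58). Ifit3, an interferon-induced antiviral protein, had 563, 215, 279 and 517 CPM in IP and 121, 39.1, 48.2 and 103 CPM in input (log2 fold change 2.34 ± 0.41, adjusted p = 1.89e-04). Mice 1 and 4 were thus high in both fractions, and mice 2 and 3 low.

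Reactive genes followed a related order. The pan-reactive list had 10 of 13 genes higher in IP (median 2.10). Cp, or ceruloplasmin, was lower (-0.55 ± 0.21, adjusted p = 0.0326), a call that was lost with 6 of the 8 libraries left out in turn. Gfap (chromosome 11, 102887336 to 102897200), the intermediate filament of reactive astrocytes, had 1866, 1263, 714 and 1295 CPM in IP and 289, 229, 105 and 195 CPM in input, highest in mouse 1 and lowest in mouse 3 in both fractions (log2 fold change 2.65 ± 0.31, adjusted p = 4.11e-06). Cd109, a surface protein that binds TGF-β, had the same order at its ends, with 30.4, 14.3, 7.52 and 17.96 CPM in IP and 4.29, 2.76, 1.55 and 2.77 CPM in input (log2 fold change 2.64 ± 0.38, adjusted p = 2.53e-05). Thbs4, a thrombospondin, ranged from 18.1 to 63.1 CPM in IP and from 4.19 to 13.9 CPM in input, again with mouse 3 lowest and mouse 1 highest. H2-Ab1, a chain of MHC class II, had 51.95, 15.4, 1.39 and 7.70 CPM in IP and 56.2, 21.6, 4.90 and 9.46 CPM in input, so that its spread between mice was wider than its difference between fractions (log2 fold change -0.26 ± 0.97, adjusted p = 0.818). Thbs4 was chosen for its range between mice after its values were seen.

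Some cell type lists differed between mice as well. Cortical and thalamic excitatory markers had a mean log2 CPM of 1.82, 4.02, 2.64 and 2.25 in IP and 1.33, 3.43, 1.51 and 1.35 in input, with mouse 2 highest in both. Slc17a7, the vesicular glutamate transporter of cortical neurons, had 16.4, 188, 36.9 and 15.96 CPM in IP and 15.1, 119.6, 16.1 and 9.65 CPM in input. With that spread the gene was not called (0.68 ± 1.07, adjusted p = 0.584), and of the 11 genes of the list 2 were higher and none lower. These were the cortical factor Fezf2 at 1.73 ± 0.25 (adjusted p = 7.68e-06) and Rorb, which astrocytes also express, at 2.10 ± 0.078 (adjusted p = 3.82e-13). Oligodendrocyte markers had a mean log2 CPM of 8.26, 7.79, 6.81 and 7.52 in IP and 7.72, 7.96, 7.20 and 7.55 in input, lowest in mouse 3 in both fractions.

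**Figure D5:**
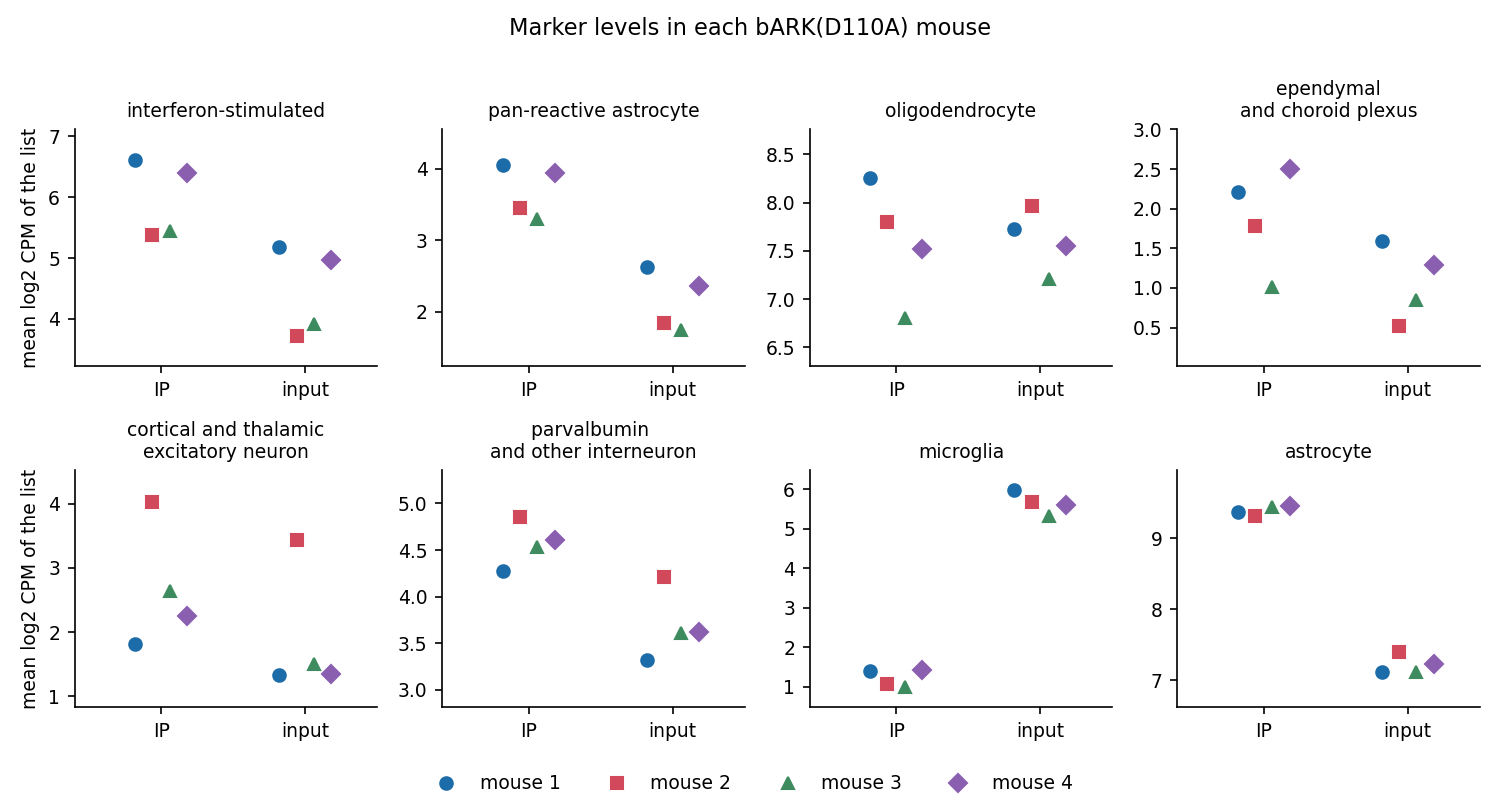
Mean log2 CPM (vertical axes) of 8 marker lists in the IP (left) and input (right) library of each bARK(D110A) mouse, 1 symbol per mouse. Interferon-stimulated genes are high in mice 1 and 4 in both fractions, cortical and thalamic markers in mouse 2, and astrocyte markers lie within 0.147 of each other in IP.

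The genes whose ratio of IP to input differed most between mice, among those with a mean of at least 10 CPM, were Prkcd, Ctgf, Ly6a, C3, Pvalb, Rnase4, Igj, H2-Ab1, Rmrp and Kcnab3. Prkcd, a protein kinase C isoform abundant in thalamus, had 18.9, 15.00, 14.8 and 15.8 CPM in IP and 16.4, 43.9, 10.2 and 9.97 CPM in input, so that the input of mouse 2 stood apart and the IP did not. Pvalb had 16.2, 19.4, 18.5 and 21.9 CPM in IP and 17.1, 62.99, 23.7 and 20.1 CPM in input, with the same library apart. Ctgf, a matrix protein induced by mechanical signals, had 3.85, 41.4, 23.1 and 12.7 CPM in IP and 5.84, 16.6, 6.80 and 7.40 CPM in input. C3, the central complement protein, had 46.5, 32.1, 3.12 and 29.5 CPM in IP and 31.4, 12.99, 4.49 and 12.5 CPM in input, lowest in mouse 3 in both. None of Prkcd, Ctgf, C3 and Pvalb was called between IP and input (adjusted p = 0.45, 0.272, 0.284 and 0.112). Igj, the joining chain of secreted antibody, ranged from 0.414 to 1.57 CPM in IP and from 14.97 to 127 CPM in input, lower in the IP of every mouse (log2 fold change -5.74 ± 0.72, adjusted p = 9.14e-06).

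The last comparison asked whether the enrichment with bARK(D110A) differed from that with bARK. No gene passed in either direction (0.00% of 15850, smallest adjusted p = 0.825), although 951 genes (6.00%) had an unadjusted p under 0.05, where DESeq2 gave 953 and no call. With mouse as a block 1851 genes had such a p and none was called. The precision was fair: the median SE of the difference was 0.092 over genes with a mean of at least 10 CPM. Limd1, a scaffold of the Hippo pathway, had the smallest p, with a log2 fold change of 0.66 with bARK(D110A) and 1.05 with bARK, a difference of -0.40 ± 0.081 (edgeR adjusted p = 0.825). Pacsin3, an endocytosis adaptor, had 1.66 with bARK(D110A) and 2.07 with bARK, a difference of -0.41 ± 0.10 (adjusted p = 0.825). In the other direction Cacna2d1, a calcium channel subunit of neurons, had -0.42 with bARK(D110A) and -0.71 with bARK, a difference of 0.30 ± 0.079 (adjusted p = 0.825).

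List medians with bARK(D110A) and with bARK are given side by side without a test. Astrocyte markers had 2.31 with bARK(D110A) and 2.55 with bARK. For cholinergic interneuron markers they were 1.98 and 2.19, for shared spiny neuron markers -0.99 and -1.13, and for microglial markers -5.22 and -5.10. Grk2, listed as Adrbk1, had 0.12 with bARK(D110A) and 0.32 with bARK (difference -0.21 ± 0.13, adjusted p = 0.849). Rpl22 had 1.71 and 1.98 (difference -0.27 ± 0.15, adjusted p = 0.834). Of the 20 astrocyte markers 8 had an unadjusted p under 0.05 for the difference, and none passed the adjustment.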

How the data were processed

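RNA was sequenced from whole striata as IP and input, in 4 libraries per group. Paired-end libraries were made from 100 ng of RNA with a Nugen Ovation kit after enrichment for mRNA, per the labels' protocols. Values were deposited as the whole-number count of reads for a gene in a library, which the authors obtained with bcl2fastq 2.17, STAR, HTSeq and build mm10, per the submitters' processing notes. The name of the deposited table gives the annotation as refSeq. The strand setting is not given in the sources used here, and overlapping and antisense genes are uncertain. Gene coordinates and RNA classes are those of RefSeq for GRCm38, and lengths and GC content those of GENCODE M21.

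Counts were tested with edgeR 4.0.16 in R 4.3.3: TMM factors, filterByExpr at a minimum count of 10, and quasi-likelihood F tests with robust dispersion, in 1 fit of all 16 libraries. The fit held group means and no mouse term. P-values were adjusted by Benjamini-Hochberg over the 15850 genes that passed, of 24060 lines, with a threshold of 0.05, and 8210 lines were not tested. The stricter call used glmTreat with a bound of 1 on the log2 scale. Unless another test is named, adjusted p-values are from edgeR, ± after a log2 fold change is its standard error, and lists of 4 CPM values run from mouse 1 to mouse 4. CPM values use TMM library sizes, and log2 CPM a prior count of 2. Alternatives used DESeq2 1.42.0, other scalings, other filters, a mouse block and left-out libraries. Same-numbered IP and input libraries deviated together (correlations 0.24 to 0.56), so that the numbers pair the samples. The scripts were tested on simulated data.

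The libraries, the 58 gene lists and the tests were chosen with earlier results of these data known. Genes named are Rpl22 and Grk2, the 10 largest gains and the 10 largest losses beyond 2-fold with a mean of at least 10 CPM and no overlap, the most abundant genes, members of the lists, the smallest p-values of the difference between constructs and the widest ratios between mice. Some members of the lists are counted but not reported by name here.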

Additional observations from a re-analysis of the deposited data

Results flagged for a closer look

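In each group of 4 bARK(D110A) libraries, the gap of the highest or lowest library to its neighbour was divided by the group's range, and a value above Dixon's 95% critical value marked a library as standing apart. Of 394 groups tested over lists and named genes, 25 passed, where chance passes about 1 in 20 of separate and unselected groups. The number that passed is near that rate. The rate is only a rough guide, since lists and genes overlap and some genes were named for their spread between mice. Mouse 2 accounts for many of the 25. Its input was highest in cortical and thalamic excitatory markers (mean log2 CPM 3.43, next 1.51; gap over range 0.915) and in the genes Slc17a7 (0.941), Pvalb (0.856), Fezf2 (0.852) and Ctgf (0.856), and its IP was highest in Slc17a7 (0.878). Its input was lowest in the spiny neuron genes Arpp21 (0.945), Drd1a (0.853) and Gabra4 (0.835). It was also highest in the mean level of fatty acid oxidation genes (4.87, the others 4.78 to 4.79; 0.977) and in Glul (0.939).

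The IP of mouse 2 was lowest in serine, glycine and one-carbon enzymes (mean log2 CPM 5.36, next 5.48; 0.873), in lineage transcription factors (5.21, next 5.36; 0.832), in Meg3 (0.854) and in Limd1 (0.842). Mouse 3 was highest in the IP level of Grm5 (0.968) and of Ptprm (0.886), and lowest in the input level of endothelial markers (3.91, next 4.11; 0.937). Mouse 1 was lowest in the IP level of Gq-coupled receptors (3.35, next 3.48; 0.865) and in the input level of Slc1a2 (0.974). It was highest in the IP level of lipid carriers (7.84, next 7.70; 0.923), in the IP level of Slc38a5 (0.883), in the input level of Cox6b2 (0.94) and in the input level of Alas2, the 1 red blood cell gene tested (1.75, next 1.37; 0.845). Mouse 4 was lowest in the IP level of Gnaq (0.915).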

How the results depend on the processing

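The counts of genes higher and lower in IP kept within 1.5 times under every alternative run: size factors by RLE (5769 and 5929), DESeq2 (5797 and 5935), no filter on low counts (5974 and 6173), the 8 bARK(D110A) libraries alone (5366 and 5473) and library size as the only scaling (4459 and 7473). The last of these gave 37.4% of calls as higher, against 49.6% with TMM, and 34.6% of the calls beyond 2-fold, against 45.7%. With each library left out, 5634 to 5790 genes were higher and 5566 to 5871 lower. The replicate block (mouse as a term) gave 6152 and 6248. The difference between constructs had 0 calls under every alternative run, with 1851 genes at an unadjusted edgeR p under 0.05 under the block.

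The difference in total count was 15.11 to 17.86 M with a library left out and that in genes of at least 1 CPM -465.3 to -361.7, both at an exact permutation p of 0.0571, the smallest that 3 against 4 libraries allow. At 5 CPM the difference in genes was -65.25 (exact permutation p = 0.257).

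Of 136 genes named, 16 changed call or sign under some alternative. With library size as the only scaling, Adrbk1 stood at -0.043, Eya1 at -0.024 and Sfxn1 at -0.109, Acsl4 and Gnaq were no longer called, and Isl1, Rpl15 and Rpl18 were called lower. Without the filter Kcnab3 stood at 0.009 and Rpl15 at 0.019, and under the block Kcnab3 at 0.072, while Sall1 (0.17, adjusted p = 0.0375) and Ly6a (-1.18, adjusted p = 0.0211) were called. Cp was not called without the filter (-0.522, adjusted p = 0.0571) or with 6 libraries left out in turn (adjusted p up to 0.0901), and Mobp was not called in the 8 libraries alone (adjusted p = 0.0527). Over the left-out libraries the sign turned for 6 genes, none called in the full data: Kcnab3 (-0.186 to 0.409), Rpl15 (-0.038 to 0.044), Sfxn1 (-0.005 to 0.095), H2-Ab1 (-1.482 to 0.687), Slc17a7 (-0.803 without the IP of mouse 2 to 2.25 without its input) and Prkcd (-0.522 to 0.404). Prkcd was called higher without the input of mouse 2 (adjusted p = 0.0357), Sall1 without that input (0.225, adjusted p = 0.0422) and Ly6a lower without the IP of mouse 1 (-1.605, adjusted p = 0.0215). Beyond the construction of each alternative, the cause was not tested. Depth limits genes under 1 CPM in IP most.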

Other observations

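Genes of neuronal excitation that were not described above were split in the bARK(D110A) libraries. Of 24 ionotropic receptor subunits 5 were higher and 13 lower in IP (median -0.35), with Grin2c, an NMDA receptor subunit of astrocytes and cerebellar granule cells, at 2.08 ± 0.11 (adjusted p = 1.25e-10) and Gabrg1, a GABA-A subunit, at 1.89 ± 0.21 (adjusted p = 2.24e-06). Gabra4, the GABA-A subunit of spiny neurons, was lower at -1.01 ± 0.073 (adjusted p = 1.36e-09). Immediate early genes fell in 7 of 18, near the 37.2% of all genes tested, and rose in 3 (median -0.24). Egr1 stood at -0.94 ± 0.17 (adjusted p = 1.93e-04), and Fos and Jun rose (0.91 and 0.98, adjusted p = 0.00552 and 2.61e-06).

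Some receptors for TGF-β and BMP, picked by name from a mixed list, lay on opposite sides of input. Other receptors of the list, among them Bmpr2, Acvr1 and Tgfbr3, are counted but not reported by value here. No pattern of the receptor families is drawn from the named cases. Tgfbr1 and Tgfbr2, the pair that binds TGF-β, had -1.69 and -1.70 (adjusted p = 9.56e-13 and 1.27e-06), while the BMP receptors Bmpr1a and Bmpr1b had 0.97 and 2.07 (adjusted p = 1.83e-11 and 7.97e-14). Of the 21 genes of that list 12 were higher and 9 lower. Among 14 replication-dependent histone genes 4 were higher and 8 lower (median -0.30). Cox6b2, a cytochrome oxidase subunit isoform, had 17.9, 17.2, 16.3 and 15.7 CPM in IP and 3.05, 2.56, 2.59 and 2.57 CPM in input, and stood apart from the 51 oxidative phosphorylation genes (median 0.17) at 2.64 ± 0.15 (adjusted p = 1.05e-10).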
